A study of Drosophila melanogaster with 12 samples.

Results

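The genes described here encode the subunits of the proteasome in Drosophila melanogaster. Members were the genes named by a 3′-end cluster whose Ensembl symbol begins with Prosalpha, Prosbeta, Rpn or Rpt followed by a digit. By this rule 34 of the 9576 gene identifiers in the cluster table were members, and they held 94 of 31435 distinct clusters. The rule used names alone and no measured value. In the annotation 48 genes carry such names, of which 32 are canonical subunits and 16 are duplicate genes marked by an R or a T in the symbol. All 32 canonical subunits had clusters, as did 2 of the 16 duplicates.

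The proteasome degrades proteins that carry a ubiquitin tag. Its barrel-shaped 20S core is built from rings of alpha subunits, which gate the entry, and rings of beta subunits, of which Prosbeta1, Prosbeta2 and Prosbeta5 carry the protease sites. The 19S regulatory particle caps the core: its Rpt subunits form a ring of ATPases that unfolds substrates, and its Rpn subunits recognise ubiquitin, remove it and hold the particle together. In neurons, protein turnover by the proteasome is known to contribute to synaptic growth and plasticity.

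The libraries came from an RNA immunopurification with UV cross-linking (xRIP) of Pumilio (Pum), an RNA-binding protein that recognises a short motif in 3′ UTRs. Of 12 libraries from adult head powder of flies kept at 25 °C, 3 each were labelled pum input, pum IP, w118 input and w118 IP. In the pum groups the endogenous pumilio locus carried a C-terminal Flag-HA tag, whereas w118 (w1118 in the methods) flies lacked a tag, and both genotypes underwent the same anti-Flag purification. RNA was sequenced from the poly(A) tail inwards (3′-seq), so that a cluster of reads marks where transcripts end. Per the methods, both sexes were used, no age beyond adult is given, and nothing in the sources used here says whether replicates came from separate fly collections.

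The 12 count columns share a heading and carry no library name, so all counts below are sums over all 12 columns. A pooled count mixes input and IP RNA of both genotypes and gives deeper libraries more weight. It is therefore a number of reads in the clusters of a gene and not an expression level, it has no replicate spread, and neither the IP with the input nor the 2 genotypes can be compared. Since each transcript yields reads at its 3′ end alone, counts were not divided by length. Intervals are Wilson 95% intervals and cover counting error only. In whole heads, fewer cells of a type and less RNA per cell cannot be told apart.

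A 3′ end below is a group of clusters of 1 gene lying past its stop codon, up to 500 bases beyond the annotated gene, with neighbours up to 50 bases apart joined. Its position is the 3′-most base of its most-read cluster. The following stretches, read from the reference genome on the strand of the gene (dm6), are shown because they carry most of the alternative 3′ ends of the family. Each covers the 30 bases up to and including the 3′-most base of a cluster, with the poly(A) signal, the hexamer that directs cleavage of the transcript, in capitals. Proximal denotes the end nearer to the stop codon.
Prosbeta3 proximal end: catacaAATAAAatttgtttaggtacaaca
Prosbeta3 distal end: caccagaATTAAAtgcgtaataacaccaga
Rpt5 proximal end: agctcccattaaAATAAAccatggaaatgt
Rpt5 distal end: acctttttaaAATAAAcaaaaatatatatc
Rpn9 proximal end: ttgtatttaATTAAAaacccaaatactgta
Rpn9 distal end: tggcAATAGActctggttacctaacaagct
Rpn5 proximal end: aactacaattATTAAAtgaatccccccatt
Rpn5 distal end: aagtgtccAATAAAagtatacaagtttatg
Rpt2 proximal cluster: cacatgcATTAAAccacattaacactagaa
Rpt2 distal cluster: ccgatgtgAATAAAttcgtagttgccggga
Prosbeta2 end: ttcAATAAAggaagccatgcttcatcttaa
Rpt6 end: ttcAATAAAtacatcagttagtaacataaa
The last 2 are shown for contrast, as Prosbeta2 and Rpt6 each had a single cluster. The members of a pair had different signals in Prosbeta3, Rpt2, Rpn9 and Rpn5, whereas both ends of Rpt5 had AATAAA. Rpn6, also with 2 used ends, had ATTAAA at the proximal and AATAAA at the distal end, and its sequences are not shown.

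A second set is shown because it carries the only Pumilio response element of the family and the reads that lay inside coding sequence. In the first stretch the capitals mark the element (UGUANAUA, with N any base). The others have no capitals, since no poly(A) signal was found in them.
Rpn2 3′ end: taaatggtcatcatattagaTGTAAATAat
Rpn2 coding cluster: aagatggtaacggatgagaaacccaagaag
Rpn1 coding cluster: aagagcaagaaggacaagggcaaggataag
Their places on the genome were chr3R:29157233-29157262, chr3R:29156724-29156753 and chr3L:19917084-19917113, all on the plus strand.

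Proteasome genes were among the more deeply read genes of the pool. The canonical subunits had a median of 7320.5 pooled reads per gene, against 1807 over the 9007 protein-coding genes with clusters. Of the 32 canonical subunits, 31 lay above that median, with Rpn6 as the exception, and 20 lay above the upper quartile of all genes, 5089 reads. With reads past the stop codon alone, a setting added after seeing the data, 21 of 32 lay above the upper quartile of all genes, 4829.5 reads. Together the members held 308811 reads, 0.218% of all pooled reads, or 0.333% when clusters naming several genes were left out. Leaving the identical pair described below aside, the most-read and least-read canonical subunits, Prosbeta5 and Rpn6, differed 14.7-fold.

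**Figure D1:**
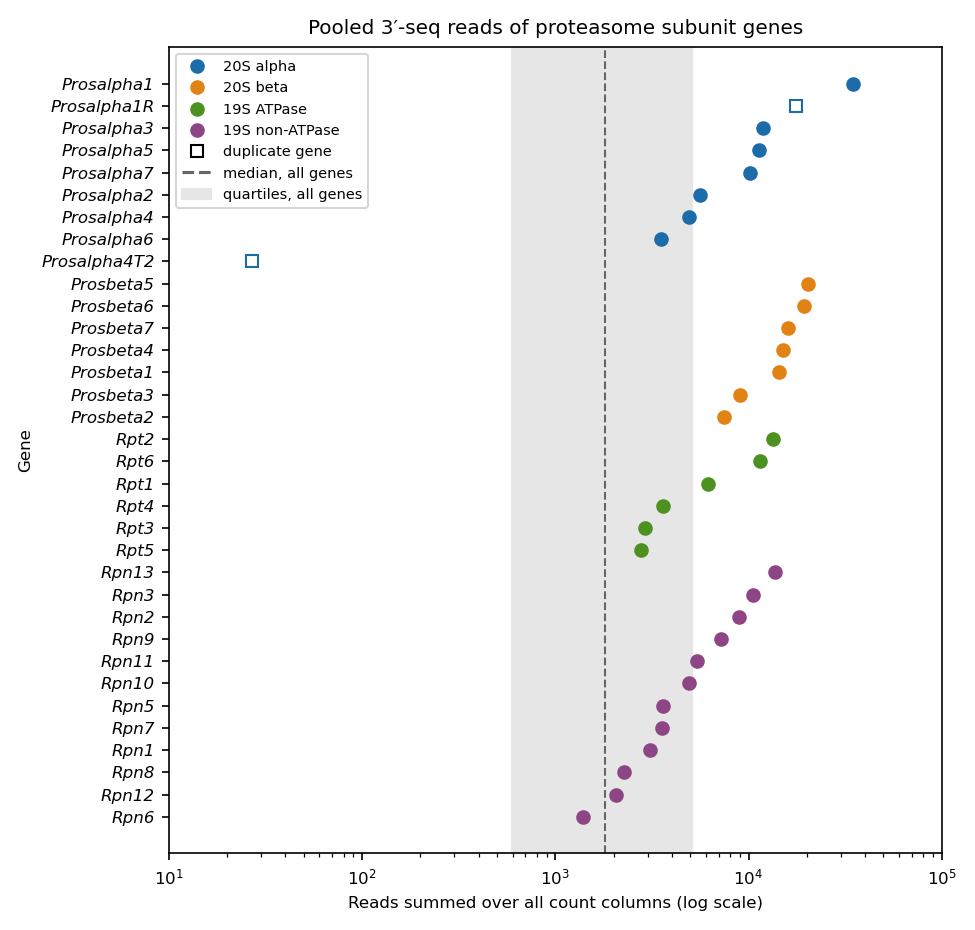
Reads summed over the 12 count columns (x axis, log scale) for each of the 34 members (y axis), coloured by subunit class, with open squares for duplicate genes. The dashed line and grey band give the median (1807) and quartiles (595 to 5089) of all protein-coding genes, and 7 of 7 beta subunits lie to the right of the band.

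Subunits of the 20S core had a higher median count than those of the 19S particle, a difference for which no replicate error is available. The 14 core subunits had a median of 11593.5 reads (lowest 3526, highest 34793), and the 18 regulatory subunits a median of 4274.5 reads (lowest 1385, highest 13659). The ratio of the medians was 2.71, and 2.64 with Prosalpha1 left out. Sem1, a lid subunit whose name falls outside the rule, had 11740 reads and is not among the 18. The ranges overlapped, with 12 of 14 core subunits and 8 of 18 regulatory subunits above the upper quartile of all genes.

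Among the alpha subunits, which form the gate of the core, Prosalpha1 had 34793 reads, Prosalpha3 11912, Prosalpha5 11275 and Prosalpha7 10126. Prosalpha2 had 5595 reads, Prosalpha4 4919 and Prosalpha6 3526. The count of Prosalpha1 (FBgn0263121, 2R, 7827303 to 7828678, minus strand) cannot be read as that of 1 gene. Its duplicate Prosalpha1R (FBgn0050382, 2R, 7830413 to 7831771, minus strand) lies 1734 bases away and had 17693 reads. Walking back from 200 bases past the annotated ends, the 2 copies were identical over 1559 bases, which is the whole of the shorter copy. Both had a single cluster of 19 bases ending 105 bases past the stop codon, at 7827296 and 7830406. Of their 52486 reads 66.3% were counted to Prosalpha1, but reads from identical sequence cannot be assigned to either copy. Without Prosalpha1 the alpha class had a median of 7860.5 in place of 10126 reads.

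The least-read alpha subunit, Prosalpha6 (FBgn0250843, 2L, 10221351 to 10222546, plus strand), ended in 5 clusters spread over 45 bases. The most-read of these, with 2905 of 3526 reads, ended at 10222507, for a 3′ UTR of 99 bases. Prosalpha2 and Prosalpha4 were each divided between neighbouring clusters. In Prosalpha2, 2482 reads lay 80 bases and 2773 reads lay 97 bases past the stop codon. In Prosalpha4, 2289 reads lay 261 bases and 2320 reads lay 281 bases past it. In both genes the clusters are less than 50 bases apart and were counted as 1 end.

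Prosalpha3 (FBgn0261394, 2R, 20994900 to 20996118, plus strand) was the only member with a cluster that also named another gene. That cluster, a single base at 20996534, held 186 reads and lay 416 bases past the annotated end. Prosalpha3 otherwise ended at 20996119, 1 base past its annotation and 88 bases after the stop codon, with 98.4% of its 3′ reads (98.2% to 98.6%).

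The beta subunits were the most evenly and deeply read class, with a 2.73-fold range. Prosbeta5, which carries the chymotrypsin-like site, had 20346 reads, Prosbeta6 19484, Prosbeta7 16039, Prosbeta4 15087 and Prosbeta1, the caspase-like subunit, 14335. Prosbeta3 had 9060 reads and Prosbeta2, the trypsin-like subunit, 7452. Prosbeta5 (FBgn0029134, 2R, 10819978 to 10821178, plus strand) was the only member with no cluster within 50 bases of an annotated end. All of its reads lay at 1 end at 10821063, 80 bases past the stop codon and 115 bases before the annotated end, and 19998 of them were in a cluster of 10 bases with AATAAA 20 bases upstream. Prosbeta2 (FBgn0023174, 3L, 14999951 to 15001319, plus strand) had all of its reads in 4 bases ending at 15001321, giving a 3′ UTR of 100 bases.

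The ATPases of the base were less even. Rpt2 had 13444 reads, Rpt6 11530, Rpt1 6195, Rpt4 3620, Rpt3 2905 and Rpt5 2771. Rpt2 (FBgn0015282, 3R, 23929873 to 23931558, minus strand) had 9599 reads in a cluster ending at 23929871, for a 3′ UTR of 75 bases, and 3600 reads in a cluster 37 bases further on, at 23929834. Both clusters had a signal of their own, as the sequences above show, and 27.3% of their reads were distal. They were joined under the 50-base rule, and with clusters joined within 25 bases Rpt2 had 2 used ends. Rpt3 had 4 clusters between 91 and 126 bases past the stop codon.

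Among the non-ATPase subunits, Rpn13, a ubiquitin receptor, had 13659 reads, Rpn3 10572, Rpn2, a large scaffold, 8940 and Rpn9 7189. Of the reads of Rpn2, 5023 lay past the stop codon, fewer than those of Rpn9 or Rpn11, and the rest lay in coding sequence. Rpn11, the deubiquitinase of the lid, had 5414 reads and the ubiquitin receptor Rpn10 had 4926. Rpn5 had 3623 reads, Rpn7 3554, Rpn1, the other large scaffold, 3094, Rpn8, the partner of Rpn11, 2264, Rpn12 2057 and Rpn6, a lid subunit that contacts the core, 1385. Rpn13 (FBgn0033886, 2R, 13958545 to 13960404, minus strand) had 13454 reads in a cluster of 23 bases ending at 13958524, 21 bases past its annotated end, for a 3′ UTR of 121 bases. This cluster, from 13958524 to 13958546, spans the annotated end.

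The duplicate genes were nearly unrepresented apart from Prosalpha1R. Several of them are known to be expressed in the testis, but why they had few or no reads here was not tested. Prosalpha4T2, a copy of Prosalpha4 (FBgn0017556, 2R, 24500780 to 24502277, minus strand), had 27 reads in a cluster of 1 base at 24500863, 322 bases past its stop codon. The other 14 duplicates had no cluster. They were copies of alpha subunits (Prosalpha3T, Prosalpha4T1 and Prosalpha6T), of beta subunits (Prosbeta2R1, Prosbeta2R2, Prosbeta4R1, Prosbeta4R2, Prosbeta5R1 and Prosbeta5R2), of ATPases (Rpt3R, Rpt4R and Rpt6R) and of non-ATPase subunits (Rpn12R and Rpn13R). No cluster of any name lay on their strand within them or up to 500 bases downstream. A cluster entered the table only where 1 library reached 6 reads, so lower levels would not appear in it. Including Prosalpha1R, duplicates made up 5.74% of member reads.

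Testis markers were mixed in the pool. Of 9 testis genes, 3 had clusters (Mst87F 548 reads, betaTub85D 95 reads and bol 7896 reads) and bam, aly, can, dj, Mst98Ca and twe had none, nor did any cluster lie on their strand within them or up to 500 bases downstream. The labelled tissue was represented by all 5 neuronal markers (7518 to 57919 reads), all 5 photoreceptor markers (69931 to 1514215 reads), all 5 glial markers (3188 to 62997 reads) and all 5 muscle markers (797 to 45593 reads). Of the fat body markers 4 of 5 had clusters (2164 to 481444 reads). The part of each cell type in the proteasome counts was not tested.

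Members ended close to where the annotation places their ends. A cluster within 50 bases of an annotated end was found for 33 of 34 members, against 94.4% of all protein-coding genes, so this share is near the background. The most-read end lay a median of 4.5 bases from the nearest annotated end, compared with 4 bases over all genes. It lay past it in 26 members, before it in 5 and exactly on it in 3. Since a position is the 3′-most base of a cluster, a cluster spanning an annotated end counted as past it. This was so in Prosalpha1, Prosalpha5 and Rpn13, among others, and the part of cluster width in these counts was not tested. Of all member reads 88.4% (88.3% to 88.5%) lay at annotated ends, 9.26% elsewhere in 3′ UTRs, 0.778% downstream and 1.55% in coding sequence. Over all genes these shares were 85.0%, 9.43%, 0.981% and 1.09%. The reads elsewhere in 3′ UTRs belonged to Prosbeta5, Prosbeta3 and Rpt5. The most-read cluster of a member spanned a median of 9.5 bases, and that of all genes 4 bases.

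The 3′ UTRs of the family were short and alike. Measured to the most-read end, they had a median of 104 bases (quartiles 87.5 and 143), against 230 bases (104 and 599) over 8880 genes. Of 34 members, 30 lay under the median of all genes and 17 under its lower quartile, and 24.9% of all genes were shorter than the median member. The shortest was that of Rpt6 with 68 bases, and the longest was that of Rpn6 with 328 bases. Over the canonical subunits, class medians were 99 bases for alpha, 91 for beta, 94 for ATPase and 126 for non-ATPase subunits. Besides Rpn6, the members over the median of all genes were Prosalpha4 (281 bases), Rpn8 (258 bases) and Prosalpha4T2 (322 bases). Across 31 canonical subunits, Prosalpha1 left out, pooled reads and 3′ UTR length had a Spearman rho of -0.56, and across all genes 0.08. These values are across genes that share the same 12 libraries and are not independent replicates. The subunit classes differed in both measures, no value within a class is given, and the part of class was not tested.

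**Figure D2:**
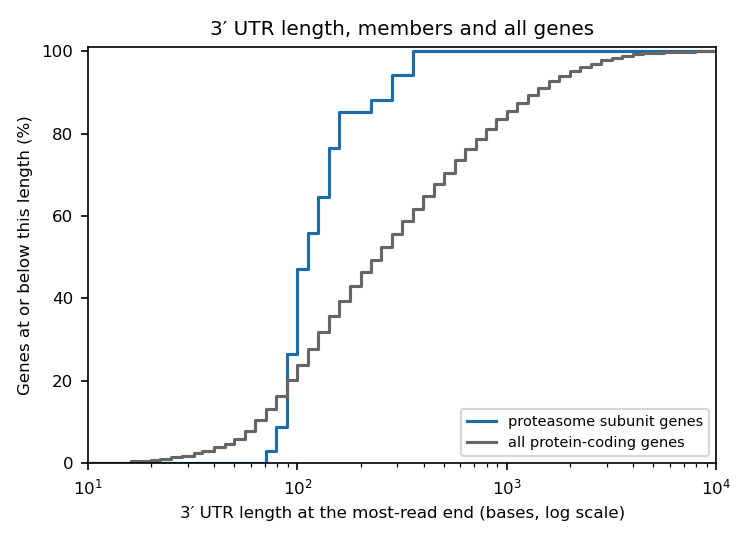
Cumulative share of genes (y axis, percent) at or below each 3′ UTR length at the most-read end (x axis, bases, log scale), for the 34 members and for 8880 protein-coding genes. The curve of the members climbs between 68 and 328 bases, and the medians are 104 and 230 bases.

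Most members, like most genes, had a single 3′ end. All 3′ reads fell at 1 end in 25 of 34 members, or 73.5% (56.9% to 85.4%). Of all genes with such an end this held for 60.9%, which lies inside that interval, so the share is near the background. An end was called used when it held at least 5% of the reads past the stop codon of its gene. By this rule 5 of 34 members had 2 or more used ends, against 31.4% of 8902 genes. These 5 were Prosbeta3, Rpt5, Rpn9, Rpn5 and Rpn6. They include 3 of the 12 canonical non-ATPase subunits and 1 ATPase, 1 beta subunit and no alpha subunit. The members had more reads per gene and shorter 3′ UTRs than all genes, and the part of either in this count was not tested.

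**Figure D3:**
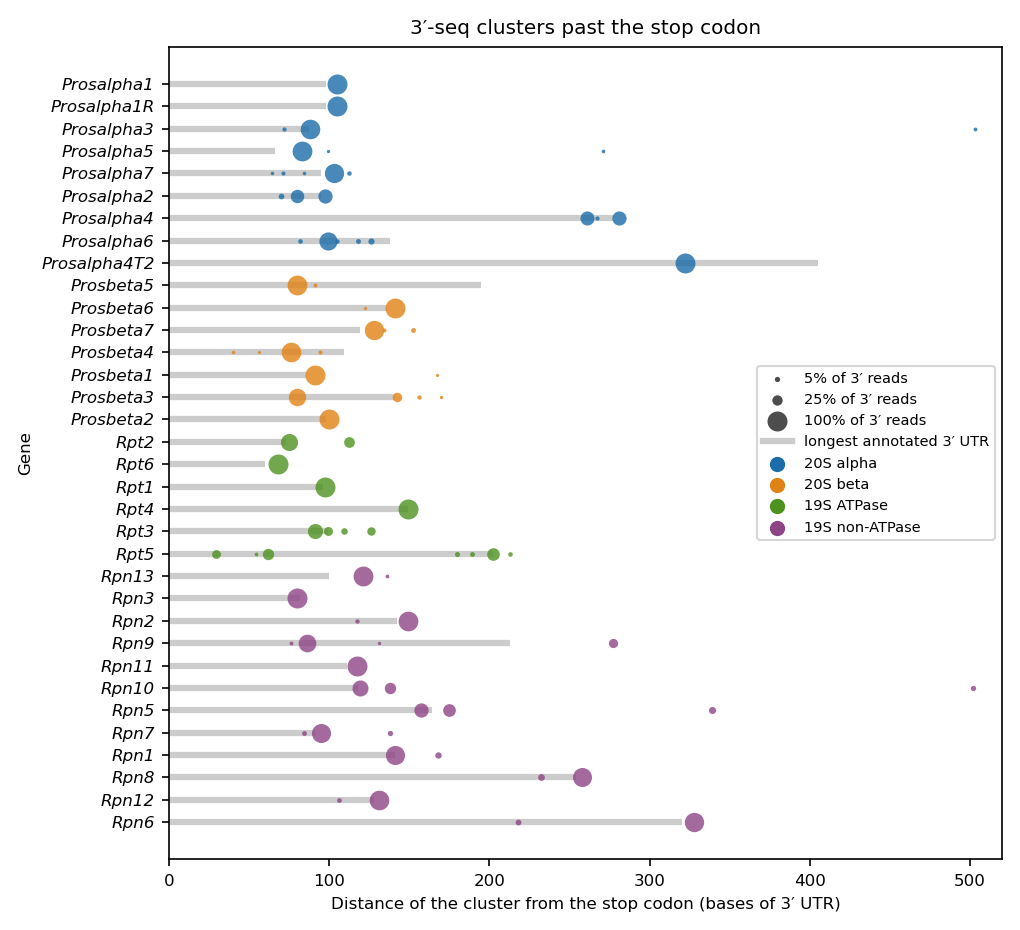
Clusters past the stop codon for each member (y axis), placed by distance from the stop codon (x axis, bases), with the area of each point growing with the share of the gene's 3′ reads. Grey bars give the longest annotated 3′ UTR, so points beyond a bar lie past the annotation, as for the distal ends of Rpn9 (277 bases) and Rpn5 (339 bases).

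Rpt5 was divided most evenly. This ATPase gene (FBgn0028684, 3R, 23752876 to 23754623, plus strand) had 1383 reads at a proximal end at 23754483 and 1388 at a distal end at 23754623, the annotated end. The shares were 49.9% (48.0% to 51.8%) and 50.1% (48.2% to 52.0%), so which end is the more used was not detectable at this depth. The ends were 140 bases apart and gave 3′ UTRs of 62 and 202 bases. Each was made of several clusters, among them 490 reads on a single base 29 bases past the stop codon.

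Prosbeta3 (FBgn0026380, 3R, 9005313 to 9006226, minus strand) favoured its proximal end. Of its reads 6872, or 75.8% (75.0% to 76.7%), lay at 9005374, for a 3′ UTR of 80 bases. The remaining 2188 reads (24.2%) lay at 9005312, 62 bases downstream, where the annotation ends and the 3′ UTR measures 142 bases. The proximal end lay 61 bases before the annotated end.

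In Rpn9 and Rpn5, both scaffold subunits of the lid, the minor end lay beyond the annotated gene. Rpn9 (FBgn0028691, 3R, 23731375 to 23733462, minus strand) had 5789 reads, 80.5% (79.6% to 81.4%), at 23731502 and 1400 reads, 19.5%, at 23731311. The 3′ UTR measured 86 bases to the former and 277 to the latter, which lay 64 bases past the annotation with AATAGA as its signal. Rpn5 (FBgn0028690, 3R, 5789493 to 5791569, plus strand) had 3237 reads, 89.3% (88.3% to 90.3%), at 5791562 and 386 reads, 10.7% (9.69% to 11.7%), at 5791744. This distal end lay 175 bases past the annotated end and lengthened the 3′ UTR from 157 to 339 bases. Its proximal end comprised 2 clusters 18 bases apart, with 1818 and 1419 reads.

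Rpn6 (FBgn0028689, 2R, 14750166 to 14752910, minus strand) was the only member of the 5 that favoured its distal end. There, at 14750158, it had 1296 reads, 93.6% (92.2% to 94.7%), for a 3′ UTR of 328 bases, and 89 reads, 6.43%, at 14750268 gave 218 bases. The interval of the minor share (5.25% to 7.84%) lay close to the 5% threshold. Just below that threshold was Rpn10, with 240 reads, 4.94% (4.36% to 5.58%), at a distal end 502 bases past its stop codon. Prosalpha3, Prosalpha5 and Prosbeta1 had minor downstream ends of 1.56%, 1.25% and 0.349%.

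Of the 18 canonical 19S genes, 7 had AATAAA as poly(A) signal, 7 had ATTAAA, 3 had another signal and 1 had none. A poly(A) signal among 12 hexamers was found 10 to 40 bases before the most-read end in 29 of 34 members, against 87.6% of all genes, a share near the background. AATAAA preceded the end of 18 of 34 members, namely of 11 of 14 core subunits and of 7 of 18 regulatory subunits. ATTAAA without AATAAA in the window preceded 7 of 34 members (10.3% to 36.8%), compared with 10.5% of all genes, which this interval includes. These were none of the 14 core subunits and 7 of the 18 regulatory subunits (Rpt2, Rpt4, Rpn3, Rpn5, Rpn8, Rpn9 and Rpn12). A core subunit counted under AATAAA can also hold ATTAAA. In Prosalpha2 it lay 13 bases before a neighbouring cluster of the same end. All 7 beta subunits had AATAAA, which preceded 57.3% of the ends of all genes. Another signal was found for Rpt3 and Rpn10 (TATAAA), Rpn1 (AATATA) and Prosalpha4T2 (AAGAAA). The 5 members with none in this window were Prosalpha1, Prosalpha1R, Prosalpha4, Prosalpha6 and Rpn11. In each of these a hexamer lay slightly further upstream, 41 bases before the end in Prosalpha6, 44 in Prosalpha1 and Prosalpha1R, 45 in Rpn11 and 46 in Prosalpha4. The call rests on the most-read cluster of an end. In Prosalpha4, the cluster of 2289 reads at the same end had TATAAA 26 bases before it. In Prosalpha6, some minor clusters of the same end had AATAAA 24, 12 and 20 bases before them. Positions were taken at the 3′-most base of a cluster. The most-read cluster spanned 19 bases in Prosalpha1 and Prosalpha1R, 12 in Prosalpha6, 7 in Rpn11 and 5 in Prosalpha4. The median of all members was 9.5 bases, and the part of cluster width was not tested. These hexamers are matches of letters and were not tested as sites.

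**Figure D4:**
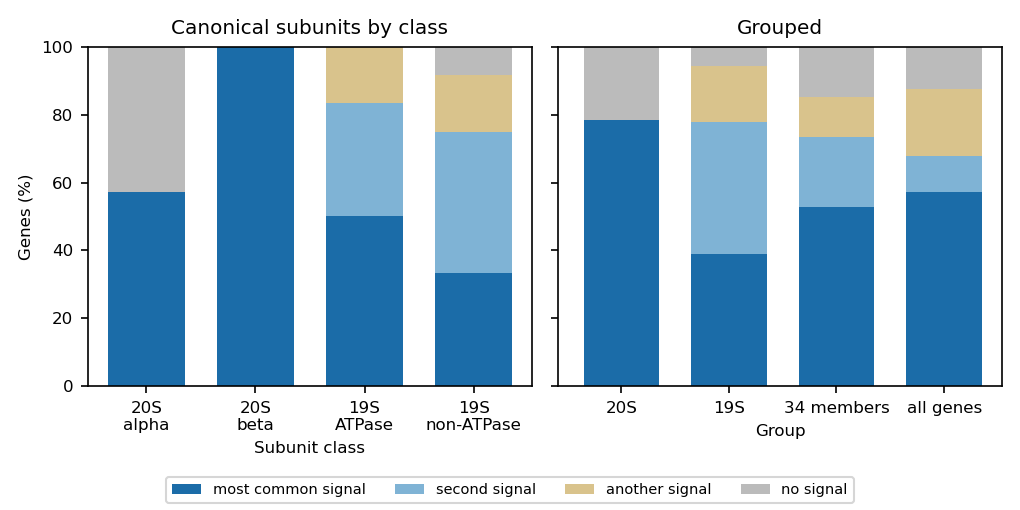
Share of genes (y axis, percent) by the poly(A) signal found before the most-read end, for the canonical subunits of each class (left) and for core, regulatory, member and all genes (right). The most common signal is AATAAA and the second is ATTAAA, which precedes 0 of 14 core and 7 of 18 regulatory subunits.

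A single Pumilio response element was found in the family. UGUANAUA was counted on the strand of the gene from the stop codon to the most distal used end. It occurred in 1 of 34 members, Rpn2, against 22.6% of 8881 genes. The members offered 4878 bases in all, with 0.205 elements per kilobase, a rate resting on 1 element, compared with 0.500 per kilobase over all genes. The shortness of these 3′ UTRs moves with the count, and its part was not tested. UGUA, the first letters of the element, occurred in 24 of 34 members, against 79.4% of all genes. No member was on the study's list of Pum targets, which holds 4.93% of all measured genes, or on its list of genes with neuronal 3′ UTRs, which holds 2.94%. At these shares, a count of 0 among 34 members is near the background. The lists come from other analyses of the study, and whether Pum bound any of these transcripts in the present libraries was not tested.

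In Rpn2 (FBgn0028692, 3R, 29153524 to 29157255, plus strand) the element occupied 29157253 to 29157260. It began 140 bases past the stop codon and ended 2 bases before the 3′-most base of the cluster at 29157262, as the first sequence of the second set shows. The annotated gene ends at 29157255, inside the element, so the annotated 3′ UTR of 142 bases does not hold it whole. The cluster spans 15 bases, from 29157248 to 29157262, so only transcripts that end near its 3′ side can contain the complete element.

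Reads inside coding sequence were few and lay mostly in Rpn2. They occurred in 5 of 34 members, against 12.9% of all genes. Coding sequence held 3917 of the 8940 reads of Rpn2, or 43.8%, in 4 clusters within 97 bases, and the most-read of them (2727 reads) ended 509 bases upstream of the 3′ end. Rpn1 had 373 such reads, 12.1% of its count, in 1 cluster. At least 10% of reads in coding sequence was a property of 2 of 34 members and of 4.40% of all genes, so this share is near the background, and the 10% limit was chosen after the values were seen. Prosalpha4 had 202 coding reads, Rpt2 245 and Rpn10 63. None of the 8 coding clusters had a poly(A) signal in the window. They had a mean of 5.38 A in the 10 bases that followed, compared with 5.30 over coding clusters of all genes and with 3.86 over member clusters at annotated ends. The values ranged from 2 in the Rpn1 cluster to 9 in a cluster of Rpn2. The authors masked A-rich positions except within 25 bases of annotated ends, so coding and annotated-end clusters were not filtered alike. The part of priming on A-rich sequence in these reads was not tested.

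Of 19 genes that work with the proteasome, 18 had clusters under their current identifiers, with a median of 5135.5 reads. TER94, which extracts ubiquitinated proteins, could not be matched by identifier, although 2 clusters under another identifier lay on its strand at its position. Sem1, a small lid subunit with another type of name, had 11740 reads and a 3′ UTR of 93 bases. The assembly chaperone Pomp had 6562 reads, the regulator PI31 1383, and the alternative cap REG 4979. The deubiquitinases Usp14 and Uch-L5 had 6618 and 1674 reads. Reads of cnc, a transcription factor known to induce proteasome genes, numbered 57315, those of its partner maf-S 9249 and those of Keap1, its inhibitor, 848. Ubiquitin itself was encoded by the most-read gene of the list, Ubi-p5E with 64583 reads, and by Ubi-p63E with 21429. The remaining genes (rngo, Pngl, Ufd1, Npl4, Uba1, Rad23 and CG9588) had 646 to 7700 reads. Of the 18 genes, 7 had 2 or more used ends (Pomp, PI31, Uch-L5, rngo, cnc, Uba1 and Rad23), against 31.4% of all genes, and 2 held a response element, cnc and Pngl, against 22.6%. Their median 3′ UTR was 130.5 bases.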

How the data were processed

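Per the study's methods, the authors used fastp for trimming and STAR 2.6.1b for mapping to dm6 (release 93). They masked bases followed by 6 or more A, or by 7 A within 10 bases, except within 25 bases of annotated ends, since the primer can anneal there. Peaks of depth 6 or more in 1 library were grown by up to 15 bases into clusters and merged. The deposited table holds raw counts per cluster in 12 columns that name no library. The columns were not assigned by order or value, and 0 of them was used alone, so the depth of each library is not reported here. How reads that map to several places were treated is not given in the sources used here.

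Counts were summed over the 12 columns, with repeated positions taken once, in Python 3.11.15. Clusters were placed on Ensembl release 115 genes of the same assembly, in which 80 of the 9576 identifiers were not found. A cluster within 50 bases of a transcript end was at an annotated end, and others were placed in turn in 3′ UTR, downstream or coding sequence. The scripts were tested on simulated data. No test was made, since no library is identified. Every member was named, with full positions for the most-read and least-read of each class, those with 2 or more used ends or a response element, and those sharing a cluster. Members, lists and settings were chosen with earlier results of these data known.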

Additional observations from a re-analysis of the deposited data

Results flagged for a closer look

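Reads inside coding sequence lie outside the measure of 3′ ends, and they occurred in 5 members. They were flagged above the 3 reads that a count of 0 allows. The depth that a cluster needs to enter the table is higher than this limit. Any member with a coding cluster therefore passes it, and the flag shows only that such a cluster is present. Rpn2 had 3917 coding reads, Rpn1 373, Rpt2 245, Prosalpha4 202 and Rpn10 63. Coding reads were present in 1159 of 9007 genes, so 5 of 34 members is close to what all genes show.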

How the results depend on the processing

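Counts of members were taken as unmoved within 1.5 times the main count, shares within their counting interval and medians only when equal. By this measure 30 of 44 alternative values were unmoved and 14 moved, as follows. With 25 or 100 bases to an annotated end, 86.6% or 91.1% of member reads lay at such ends. Members held 0.333% of all pooled reads without clusters naming several genes and 0.282% without the ribosomal DNA scaffold. Counting ends from 1% of reads gave 8 members with 2 or more used ends. The median 3′ UTR was 111 bases to the most distal used end and 114.5 bases as annotated, and 101.5 bases for canonical subunits alone. A response element was found in 0 members in annotated 3′ UTRs, and UGUA in 24. AAUAAA alone preceded 18 ends. At supported ends alone, the median reads were 14285 for beta and 4088.5 for non-ATPase subunits. Leaving out Prosalpha1, chosen after seeing the data as was the restriction to canonical subunits, gave 7860.5 for alpha subunits. Among the unmoved counts, 7 members had 2 or more used ends with clusters joined within 25 bases, and a window of 10 to 50 bases held a signal in all 34 members and in 90.7% of all genes. No paired analysis was possible because the count columns carry no library name. Depth limits the rare ends, since a cluster needs 6 reads in 1 library.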
